A study of Mus musculus with 9 samples.

Results

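Messenger RNA of 35 genes of the lysosome and of its proton pump, the vacuolar ATPase (V-ATPase), was followed in mouse embryonic stem cells labelled as lacking KLF2 and KLF4 and in wild-type cells. The genes were chosen by name, as 13 V-ATPase subunits and accessory proteins, 5 lysosomal membrane proteins, 7 proteases, 8 glycosidases, the saposin precursor Psap and the autophagy receptor Sqstm1. Each symbol matched 1 identifier of the 52550 in the table, and all 35 genes were among the 11893 with enough reads to be tested. Counts came from 5 libraries labelled KLF2/KLF4 DKO (DKO 1 to 5) and 4 labelled wildtype (WT 1 to 4). Both groups derive from V6.5, a hybrid mouse line, and grew under the same conditions, in medium with 15% FBS and LIF, with both GSK and MEK inhibited. The labels give neither the deleted part of the targeted genes nor the number of clones or cultures behind the replicates, so p-values measure the spread between these libraries, which may be technical. Positions are on mm10 (GRCm38).

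The lysosome is the compartment where cells break down proteins, sugar chains and lipids that arrive by endocytosis or autophagy. Its enzymes need an acid lumen, which the V-ATPase provides by coupling ATP hydrolysis in its cytosolic V1 sector to proton transport through its membrane V0 sector. Many of these genes carry, near their start, the CLEAR element, an E-box that the factors TFEB and TFE3 bind, and lysosomal genes are therefore often regulated together. In mouse embryonic stem cells TFE3 and its inhibitor folliculin are known for their part in the exit from naive pluripotency.

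Libraries held between 6035642 and 7098530 counts, and 3 counts in a library, taken as the floor, equalled 0.423 to 0.497 CPM, the unit of level used here, which is a count scaled to library size. Library sizes were scaled by TMM factors. The kit reads the 3′ ends of transcripts, so a gene's level does not depend on its length, and use of another 3′ end would also change a count. Klf2 had 593.6 to 635.1 CPM in DKO and 447.8 to 468.2 in WT (log2 fold change 0.42 ± 0.04, SE, edgeR adjusted p = 6.2e-10), and Klf4 1403.4 to 1769.0 CPM in DKO and 775.3 to 878.1 in WT (0.91 ± 0.06, SE, edgeR adjusted p = 8.6e-14), so the libraries labelled DKO hold more, not fewer, reads of both targeted genes. The median log2 fold change of their neighbours, the other tested genes that start within 5 Mb, was 0.35 around Klf2 and 0.10 around Klf4. Klf2 stood 0.07 above its neighbours and Klf4 0.81 above its own. Each direction below compares libraries by these labels, DKO over WT. Stem cell markers were abundant in both groups, with a sum over 8 genes of 2747 to 2921 CPM in DKO and 1984 to 2140.3 in WT, of which Pou5f1 averaged 21.5 CPM in DKO and 23.9 in WT. Of 7 macrophage markers, a cell type rich in lysosomes, 6 had 5 counts in all DKO libraries and 4 in all WT libraries together, and Tyrobp and Adgre1 were at 0, while Cd68 averaged 6.96 CPM in DKO and 9.01 in WT. The sum of 8 fibroblast markers ran from 1.15 to 3.76 CPM in DKO and from 2.65 to 4.40 in WT, with Lum at 0. The sum of 8 primitive endoderm markers ran from 4.76 to 6.28 CPM in DKO and from 3.23 to 5.26 in WT. Without Sox7 it ran from 2.36 to 3.14 in DKO and from 3.23 to 5.11 in WT. Sox7 rose (log2 fold change 4.17 ± 0.51, edgeR adjusted p = 1.7e-08). It averaged 2.99 CPM in DKO and 0.148 in WT, the latter below the floor. With 4 counts over all WT libraries, the size of its rise is uncertain. In such bulk libraries a change in the number of cells of 1 kind and a change in RNA per cell cannot be told apart.

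By label, DKO over WT, 20 of the 35 genes rose, 7 fell and 8 did not pass (edgeR quasi-likelihood test, Benjamini-Hochberg adjusted p under 0.05 over all genes tested). Across all 11893 genes, 23.9% rose and 24.0% fell, where 57.1% of the lysosomal genes rose. The share of lysosomal genes that fell was near this background, and the share that rose was above it. The median log2 fold change was 0.22 for the 35 genes and 0.01 for all genes tested. Changes were mostly below 2-fold: 2 of the 35 rose by 2-fold or more, Hexa and Ctsl, and none fell that far, where 4.14% of all genes rose and 6.05% fell by 2-fold or more. In 15 genes all 5 DKO libraries lay above all 4 WT libraries and in 6 all lay below, while of all genes tested 18.4% were separated upward and 19.1% downward (37.4% either way). The summed level of the 35 genes was 7814 ± 149 CPM in DKO and 6030.1 ± 58.8 in WT (SD, n = 5 and 4), and without Lamp1 and Cd63, which hold many of these reads, 4830.0 ± 70.4 in DKO and 3870.2 ± 51.4 in WT.

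**Figure D1:**
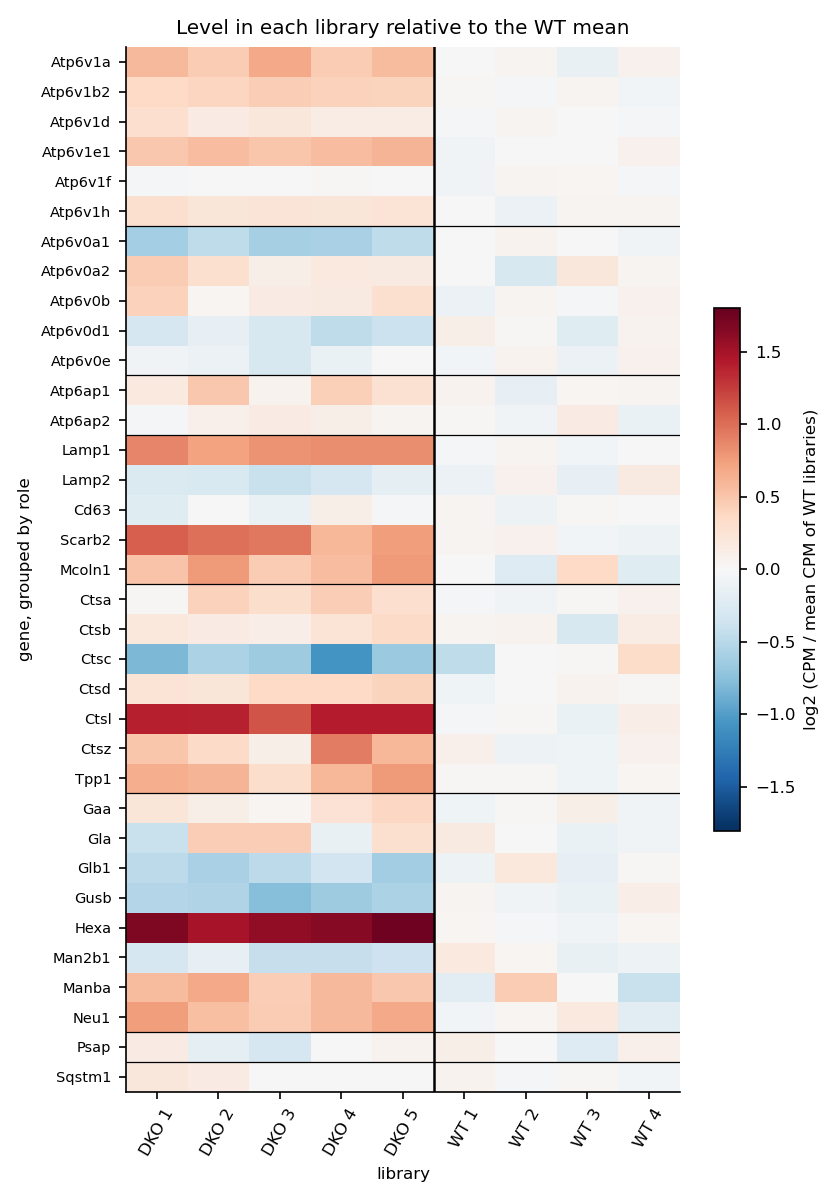
Colour shows the log2 ratio of each gene's CPM in a library to its mean CPM over the 4 WT libraries, for 35 genes in rows grouped by role and 9 libraries in columns, DKO left of the vertical line and WT right of it. The rows of Hexa and Ctsl are the reddest in all 5 DKO libraries, and those of Ctsc, Gusb, Atp6v0a1 and Glb1 are blue in all 5.

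The V1 sector, where ATP is hydrolysed, held mostly rises. Of its 6 genes 5 rose (83.3%), none fell, and the median log2 fold change was 0.32. The shares over all genes tested were 23.9% up and 24.0% down, and each role holds few genes. Atp6v1a encodes the catalytic A subunit. It had 550.9, 504.2, 590.2, 507.4 and 546.5 CPM in DKO 1 to 5 and 367.1, 380.4, 337.0 and 390.1 CPM in WT 1 to 4. All DKO libraries lay above all WT libraries (log2 fold change 0.55 ± 0.05, SE, edgeR adjusted p = 6.0e-11). Atp6v1b2, the B subunit that pairs with A in the catalytic ring, had 870.1, 885.6, 925.8, 903.5 and 898.1 CPM in DKO 1 to 5 and 691.1, 669.5, 698.9 and 654.3 CPM in WT 1 to 4. Here too the groups did not overlap, and the log2 fold change was 0.40 ± 0.04 (SE, edgeR adjusted p = 8.5e-10).

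Atp6v1e1, a subunit of the stalks that hold the catalytic ring in place, stood at 213.4, 226.0, 216.2, 225.3 and 233.8 CPM in DKO 1 to 5 and 146.3, 153.2, 151.9 and 161.2 CPM in WT 1 to 4. It rose without overlap of the groups, by 0.54 ± 0.05 on the log2 scale (SE, edgeR adjusted p = 7.9e-11). Smaller rises were those of Atp6v1d, part of the central shaft, with 194.7 to 218.9 CPM in DKO and 172.6 to 183.1 in WT, and of Atp6v1h, which regulates the coupling of the sectors, with 43.9 to 45.9 CPM in DKO and 35.1 to 39.2 in WT. Their log2 fold changes were 0.19 ± 0.05 (edgeR adjusted p = 0.00276) and 0.24 ± 0.08 (edgeR adjusted p = 0.0117), and that of Atp6v1h did not pass without WT 2 (edgeR adjusted p = 0.0560). Atp6v1f, another shaft subunit, did not pass, at 463.1 to 483.3 CPM in DKO and 455.2 to 492.0 in WT (log2 fold change -0.0025 ± 0.04, edgeR adjusted p = 0.969).

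The V0 sector, which carries the protons, went both ways. Of its 5 genes 2 rose and 2 fell, with a median log2 fold change of -0.11, and only Atp6v0a1 separated the groups. Atp6v0a1 and Atp6v0a2 encode alternative forms of the a subunit, which lines the proton path and directs the pump to particular membranes. Atp6v0a1 had 24.2, 27.1, 24.5, 24.6 and 27.0 CPM in DKO 1 to 5 and 37.1, 38.7, 37.0 and 35.4 CPM in WT 1 to 4. Every DKO library lay below every WT library (log2 fold change -0.54 ± 0.09, SE, edgeR adjusted p = 4.1e-06). Atp6v0a2 had 41.1, 36.5, 32.0, 33.6 and 33.3 CPM in DKO 1 to 5 and 29.8, 24.4, 34.4 and 30.8 CPM in WT 1 to 4. WT 3 lay among the DKO libraries, and the change passed narrowly (log2 fold change 0.24 ± 0.10, SE, edgeR adjusted p = 0.0410). Its call was lost with DESeq2 (adjusted p = 0.104) and without DKO 1 (edgeR adjusted p = 0.140), DKO 2 (0.0795), WT 1 (0.0806), WT 2 (0.225) or WT 4 (0.0581), and its log2 fold change was 0.15 without WT 2.

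Atp6v0b, which encodes a proteolipid of the rotating ring, had 121.0 to 156.7 CPM in DKO and 109.6 to 125.0 in WT, overlapping through DKO 2 alone, and rose by 0.22 ± 0.06 (SE, edgeR adjusted p = 0.00620). Atp6v0d1, the subunit that joins the ring to the shaft, had 63.1 to 77.6 CPM in DKO and 74.2 to 93.0 in WT and fell (log2 fold change -0.31 ± 0.07, SE, edgeR adjusted p = 4.2e-04). Atp6v0e did not pass, at 101.4 to 122.8 CPM in DKO and 114.7 to 130.7 in WT (-0.11 ± 0.06, edgeR adjusted p = 0.132). Summed over the listed genes, V1 stood at 2379 ± 45.5 CPM in DKO and 1889 ± 17.9 in WT, and V0 at 381.3 ± 20.5 in DKO and 394.7 ± 15.6 in WT (SD, n = 5 and 4). The ratio of V1 to V0 counts within a library, which does not depend on scaling, was 5.76, 6.18, 6.82, 6.44 and 6.07 in DKO 1 to 5 and 4.81, 4.76, 5.03 and 4.57 in WT 1 to 4. All DKO values were above all WT values. This ratio was not planned and is a description, with no test. It leaves out the ring proteolipid Atp6v0c, whose counts are uncertain. On chromosomes 6 and 8 the neighbours' median log2 fold change was 0.37 around Atp6v1b2, 0.34 around Atp6v1e1, -0.16 around Atp6v1f and -0.62 around Atp6v0d1. The part of these shifts in the ratio was not tested.

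The accessory proteins Atp6ap1 and Atp6ap2 take part in assembling the pump. Atp6ap1 had 78.6 to 105.3 CPM in DKO and 68.2 to 78.4 in WT and rose (log2 fold change 0.29 ± 0.07, SE, edgeR adjusted p = 0.00153). Its lowest DKO library, DKO 3, lay just above its highest WT library. Atp6ap2, also called the prorenin receptor, did not pass, with 199.2 to 225.0 CPM in DKO and 187.9 to 226.3 in WT (0.07 ± 0.05, edgeR adjusted p = 0.294).

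Atp6v0a1 held a smaller share of the a-subunit reads in DKO, and Atp6v0a2 a larger one. Of the counts on Atp6v0a1, Atp6v0a2 and Tcirg1, which encodes the a3 form known from osteoclasts and was named here outside the rule, after its values were seen, Atp6v0a1 held 36.6% ± 2.48 in DKO and 50.4% ± 3.59 in WT (SD, n = 5 and 4), a difference of -13.8 percentage points. It held 32.5% to 39.2% in DKO and 47.6% to 55.2% in WT, so the groups did not overlap. Atp6v0a2 held 50.6% ± 3.69 in DKO and 40.4% ± 4.0 in WT. For both shares the 2-sided exact permutation p was 0.0159, the smallest the 126 divisions of these libraries can give, and 0.0238 after Benjamini-Hochberg adjustment over the 3 shares. Shares of 1 library add up to the whole, so a fall of 1 share raises the others and the 2 results are not independent. Tcirg1 held 12.8% ± 3.43 in DKO and 9.17% ± 1.41 in WT, which did not pass (exact p = 0.0794). Without any 1 of the WT libraries both of these shares had an adjusted p of 0.0536 (exact permutation test). It is the smallest value possible there when 2 of 3 shares separate the groups, so these runs could not keep the calls. The groups still did not overlap in either share. With Atp6v0a4, another a-subunit gene, added to the total, Atp6v0a1 held 35.7% ± 2.23 in DKO and 46.9% ± 3.70 in WT, a difference of -11.1 percentage points, and Atp6v0a2 49.4% ± 3.54 in DKO and 37.5% ± 3.41 in WT (exact permutation test, adjusted p = 0.0212 each over 4 shares).

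**Figure D2:**
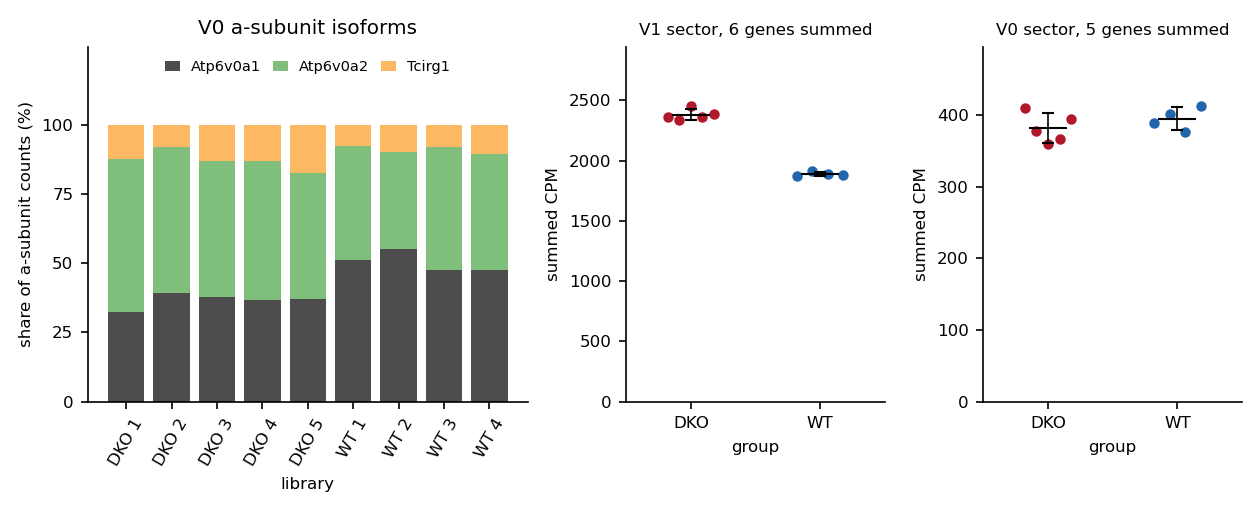
Left, stacked bars show the percent of counts on Atp6v0a1, Atp6v0a2 and Tcirg1 in each of the 9 libraries; middle and right, points show the summed CPM of the 6 V1 and 5 V0 genes per library, with horizontal marks for the mean and bars for the SD. The Atp6v0a1 share is at most 39.2% in the 5 DKO libraries and at least 47.6% in the 4 WT libraries; the V1 sums are at least 2333 CPM in DKO and at most 1913 in WT, while the V0 sums overlap.

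Of 12 further V-ATPase genes 5 had enough reads to be tested, and 1 rose and 2 fell. Atp6v1g1, a stalk subunit that pairs with E, rose to 26.3 ± 2.85 CPM in DKO, against 16.5 ± 2.56 in WT (log2 fold change 0.67 ± 0.12, edgeR adjusted p = 1.3e-05). Atp6v0e2, the alternative form of the e subunit, fell to 15.3 ± 3.18 CPM in DKO, against 28.0 ± 1.93 in WT (-0.88 ± 0.12, edgeR adjusted p = 1.9e-07), and Atp6v0a4, the a form known from kidney, to 1.68 ± 0.658 CPM in DKO, against 5.64 ± 1.03 in WT (-1.73 ± 0.27, edgeR adjusted p = 1.5e-06). Atp6v0e2 and Atp6v0a4 lie on chromosome 6, where the neighbours' median was -0.22 and -0.07. Atp6v1c1, which links the stalks to the membrane sector, averaged 69.0 CPM in DKO and 67.7 in WT and did not pass (0.03 ± 0.07, edgeR adjusted p = 0.770). Atp6v0c, the main proteolipid of the ring and picked after its values were seen, had 4 counts over the DKO libraries and 0 over the WT libraries. It has annotated processed copies (Atp6v0c-ps1 and Atp6v0c-ps2), and its counts are uncertain because the handling of reads that match several places is not given in the sources used here.

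Among the lysosomal membrane proteins 3 rose and 1 fell, with a median log2 fold change of 0.62. Lamp1 and Lamp2 encode the heavily glycosylated proteins that coat the inside of the lysosomal membrane. Lamp1 stood at 2067.0, 1860.4, 1964.6, 2017.3 and 2019.4 CPM in DKO 1 to 5 and 1112.2, 1168.7, 1090.1 and 1133.8 CPM in WT 1 to 4. The groups were far apart relative to their spread, and the log2 fold change was 0.82 ± 0.04 (SE, edgeR adjusted p = 1.7e-17). Lamp2 had 126.2, 125.0, 114.7, 122.5 and 133.3 CPM in DKO 1 to 5 and 140.0, 158.9, 136.9 and 168.3 CPM in WT 1 to 4. It fell, with every DKO library below every WT library (-0.28 ± 0.06, SE, edgeR adjusted p = 2.9e-04). The log2 ratio of Lamp1 to Lamp2 counts within a library ran from 3.90 to 4.10 in DKO and from 2.75 to 2.99 in WT (n = 5 and 4). This and 3 other ratios given for enzymes were chosen after their values were seen and are descriptions, with no test. Lamp1 overlaps Grtp1 on the opposite strand, which had 2405 counts in DKO and 1788 in WT, beside 62479 for Lamp1 itself in DKO and 30503 in WT.

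Scarb2, also called LIMP-2, is a membrane protein that takes part in sorting to lysosomes. It had 85.2, 80.1, 78.0, 61.1 and 68.0 CPM in DKO 1 to 5 and 41.6, 42.4, 39.1 and 37.9 CPM in WT 1 to 4. All DKO libraries lay above WT, with DKO 4 and 5 the lowest of them (log2 fold change 0.89 ± 0.08, SE, edgeR adjusted p = 9.3e-11). Mcoln1, a channel that releases calcium from lysosomes, had 8.37 to 10.4 CPM in DKO and 5.18 to 7.79 in WT and rose by 0.62 ± 0.17 (SE, edgeR adjusted p = 0.00342). Cd63, a tetraspanin of late endosomes and lysosomes, did not pass, at 892.1 to 1113.4 CPM in DKO and 969.6 to 1074.8 in WT (-0.05 ± 0.05, edgeR adjusted p = 0.435).

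All 7 protease genes passed, 6 upward (85.7%) and 1 downward (14.3%), with a median log2 fold change of 0.32. Among all genes tested 47.8% passed, 23.9% upward and 24.0% downward. Ctsl, which encodes the cysteine protease cathepsin L, had 338.8, 333.6, 281.6, 340.0 and 342.4 CPM in DKO 1 to 5 and 126.3, 129.8, 117.4 and 138.5 CPM in WT 1 to 4. DKO 3 was the lowest of the DKO libraries, and still about 2-fold above the highest WT library (log2 fold change 1.35 ± 0.06, a fold of 2.56, SE, edgeR adjusted p = 3.7e-19). Tpp1, a serine peptidase lost in a form of neuronal ceroid lipofuscinosis, had 113.5, 110.5, 89.9, 109.0 and 123.1 CPM in DKO 1 to 5 and 73.5, 73.0, 68.3 and 73.6 CPM in WT 1 to 4. It rose without overlap, again with DKO 3 the lowest of its group (0.60 ± 0.07, SE, edgeR adjusted p = 9.6e-09).

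Ctsd, the main aspartic protease of lysosomes, had 218.6 to 248.0 CPM in DKO and 178.0 to 195.0 in WT and rose by 0.32 ± 0.05 (SE, edgeR adjusted p = 4.1e-06). Ctsz, a carboxypeptidase, had 37.3 to 65.1 CPM in DKO and 32.3 to 36.8 in WT (0.51 ± 0.12, edgeR adjusted p = 0.00115), and its DKO libraries were widely spread. Ctsb, a cysteine protease with 69.1 to 80.9 CPM in DKO and 52.3 to 70.0 in WT, passed with 0.21 ± 0.08 (SE, edgeR adjusted p = 0.0187), but not with DESeq2 (adjusted p = 0.0511), without DKO 5 (edgeR adjusted p = 0.0670) or without WT 3 (0.160, with a log2 fold change of 0.13). Ctsz overlaps Nelfcd on the opposite strand, which had 3370 counts in DKO and 3252 in WT, and Ctsb overlaps Fdft1 likewise, with 2112 counts in DKO and 1941 in WT. The strand setting of the counting is not given in the sources used here, so reads of these pairs may be shared or lost.

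Ctsc, or dipeptidyl peptidase I, which activates granule proteases in immune cells, was the protease that fell. Its level was 16.2, 19.1, 18.2, 13.5 and 17.9 CPM in DKO 1 to 5 and 20.6, 28.4, 28.7 and 35.7 CPM in WT 1 to 4. The groups did not overlap, although WT 1 lay close to the DKO libraries (log2 fold change -0.74 ± 0.13, SE, edgeR adjusted p = 1.7e-05).

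The glycosidases, which trim sugar chains from glycolipids and glycoproteins, split evenly. Of 8 genes 3 rose and 3 fell (37.5% each), where 23.9% and 24.0% of all genes tested did. The other 2 did not pass, and the median log2 fold change of the 8 was 0.18. Hexa encodes a subunit of the enzyme lost in Tay-Sachs disease, and its change was the largest of the 35 genes. It had 182.6, 159.7, 172.3, 177.0 and 190.7 CPM in DKO 1 to 5 and 58.5, 56.3, 54.4 and 58.2 CPM in WT 1 to 4. The lowest DKO library held more than 2-fold the level of the highest WT library (log2 fold change 1.63 ± 0.06, a fold of 3.10, SE, edgeR adjusted p = 2.7e-21).

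Gm2a, an activator protein that works with the enzyme on the ganglioside GM2, lies outside the 35 genes and was picked after its values were seen. It fell to 26.7 ± 3.07 CPM in DKO, against 35.3 ± 1.73 in WT (-0.41 ± 0.09, edgeR adjusted p = 4.8e-04). The log2 ratio of Hexa to Gm2a counts was 2.73 ± 0.08 in DKO and 0.69 ± 0.08 in WT (SD, n = 5 and 4), a description of a pair chosen for its opposite changes.

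Neu1, Ctsa and Glb1 encode a sialidase, the protective protein cathepsin A and beta-galactosidase, which form a complex in the lysosome. Neu1 had 31.6, 27.3, 25.6, 28.0 and 30.0 CPM in DKO 1 to 5 and 18.1, 19.2, 21.2 and 16.2 CPM in WT 1 to 4. It rose without overlap (log2 fold change 0.61 ± 0.11, SE, edgeR adjusted p = 9.7e-06). Ctsa had 77.6, 102.2, 95.2, 104.1 and 94.5 CPM in DKO 1 to 5 and 74.9, 73.7, 77.4 and 80.7 CPM in WT 1 to 4. It rose as well (0.30 ± 0.07, SE, edgeR adjusted p = 6.1e-04), and DKO 1 lay within the WT range. Ctsa overlaps Pltp on the opposite strand, which had 444 counts in DKO and 235 in WT, and Glb1 overlaps Tmppe on its own strand, which had 98 in DKO and 152 in WT. Glb1 had 32.5, 29.9, 32.5, 35.3 and 29.1 CPM in DKO 1 to 5 and 42.2, 50.9, 40.6 and 45.7 CPM in WT 1 to 4. It fell, with every DKO library below every WT library (-0.49 ± 0.09, SE, edgeR adjusted p = 1.6e-05). The log2 ratio of Neu1 to Glb1 counts was -0.16 ± 0.17 in DKO and -1.27 ± 0.25 in WT, and that of Ctsa to Glb1 1.57 ± 0.20 in DKO and 0.78 ± 0.17 in WT (SD, n = 5 and 4), again as a description.

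**Figure D3:**
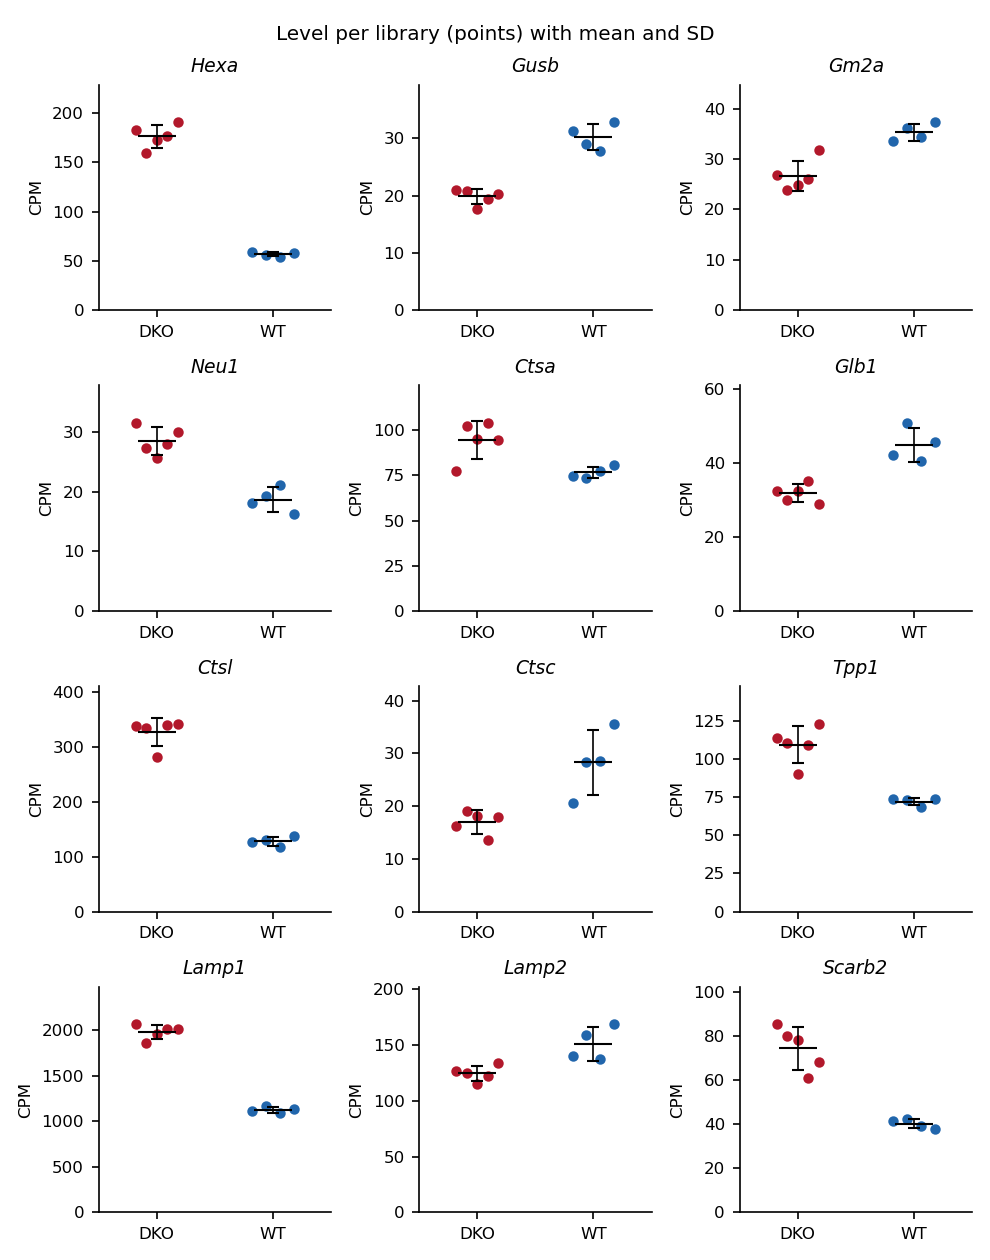
Each panel shows the CPM of 1 gene in every library (points), DKO left and WT right, with a horizontal mark for the mean and bars for the SD (n = 5 and 4), on linear axes from 0. Hexa, Neu1, Ctsl, Tpp1, Lamp1 and Scarb2 are higher in all 5 DKO libraries; Gm2a, Glb1, Gusb, Ctsc and Lamp2 are lower in all 5; Ctsa overlaps through DKO 1 at 77.6 CPM.

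Gusb, the beta-glucuronidase often used as a reference transcript, had 20.9, 20.8, 17.7, 19.4 and 20.3 CPM in DKO 1 to 5 and 31.3, 29.0, 27.8 and 32.8 CPM in WT 1 to 4. It fell, and the groups did not overlap (log2 fold change -0.61 ± 0.10, SE, edgeR adjusted p = 4.1e-06). Manba, a beta-mannosidase, had 70.7 to 83.7 CPM in DKO and 39.3 to 71.2 in WT and rose by 0.56 ± 0.14 (SE, edgeR adjusted p = 0.00571), with WT 2 inside the DKO range. Man2b1, an alpha-mannosidase, had 16.4 to 19.7 CPM in DKO and 19.8 to 24.7 in WT and fell (-0.32 ± 0.11, SE, edgeR adjusted p = 0.0158), a call lost without WT 1 (edgeR adjusted p = 0.0769). Gaa, the acid alpha-glucosidase that degrades glycogen, averaged 25.6 CPM in DKO and 22.2 in WT (0.20 ± 0.10, edgeR adjusted p = 0.0966). Gla, the alpha-galactosidase lost in Fabry disease, averaged 13.3 CPM in DKO and 11.9 in WT (0.16 ± 0.16, edgeR adjusted p = 0.408), and neither passed.

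Psap encodes the precursor of the saposins, which present lipids to these enzymes. It had 138.0 to 189.3 CPM in DKO and 145.5 to 184.1 in WT and did not pass (log2 fold change -0.04 ± 0.09, edgeR adjusted p = 0.723). Sqstm1, also called p62, brings ubiquitin-tagged cargo to autophagosomes and is itself degraded in lysosomes. Its transcript had 89.3 to 103.6 CPM in DKO and 86.8 to 93.6 in WT and did not pass either (0.07 ± 0.06, edgeR adjusted p = 0.362).

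Several of these genes lie where whole stretches of a chromosome were higher or lower in the libraries labelled DKO. For each gene the median log2 fold change was taken over all other tested genes that start within 5 Mb of it, a description with no test. On chromosome 8 it was 0.46 around Lamp1 (39 genes), 0.44 around Mcoln1 and 0.37 around Atp6v1b2, but -0.59 around Man2b1 and -0.62 around Atp6v0d1. On chromosome 6 it was 0.34 around Atp6v1e1 and -0.16 around Atp6v1f. Relative to its neighbours Lamp1 stood 0.36 higher on the log2 scale, Atp6v1e1 0.20 higher and Mcoln1 0.17 higher. Atp6v1b2 stood 0.04 above its neighbours. Man2b1 and Atp6v0d1, which fell, stood 0.27 and 0.30 above theirs, and the part of these stretches in the 6 calls was not tested.

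Away from these chromosomes the neighbours' median lay between -0.20, around Atp6v0a1, and 0.22, around Atp6ap2. It was 0.03 around Hexa, 0.07 around Ctsl, -0.01 around Scarb2 and 0.21 around Atp6v1h, whose own value was 0.24. Among the 28 lysosomal genes outside chromosomes 6 and 8, 16 rose and 5 fell, or 57.1% and 17.9%, where 22.7% and 22.4% of the 10670 tested genes there rose and fell. Their median log2 fold change was 0.21.

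**Figure D4:**
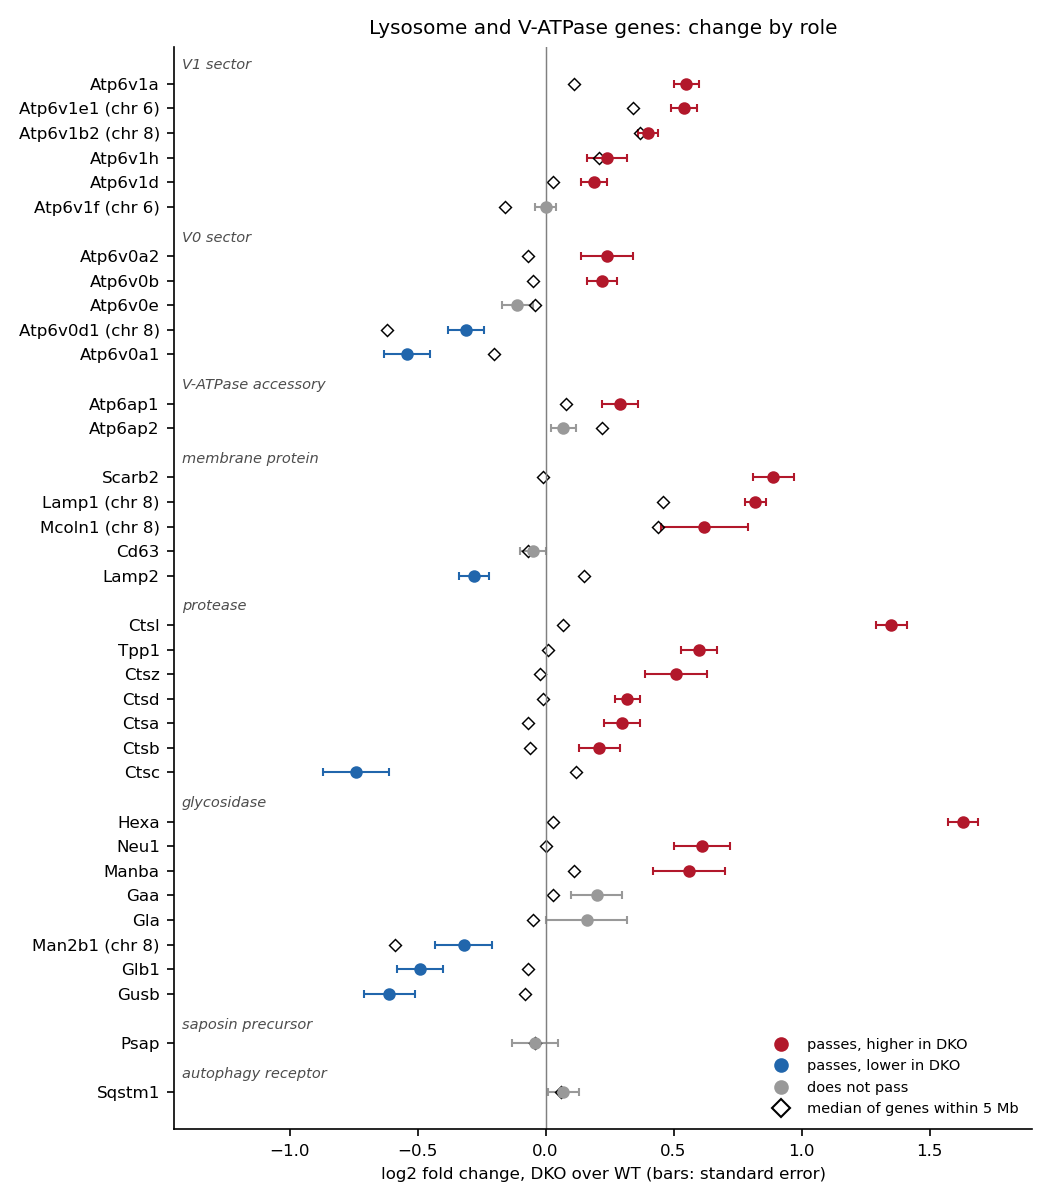
Circles show the log2 fold change of DKO over WT with its standard error for the 35 genes, grouped by role and sorted within each role, and open diamonds the median log2 fold change of the tested genes within 5 Mb. Most circles of V1 and of the proteases lie right of 0 and those of V0 lie on both sides; Lamp1, Mcoln1, Atp6v1b2 and Atp6v1e1 have diamonds well right of 0, and Man2b1 and Atp6v0d1 well left of it.

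Promoter windows from RefSeq (build GRCm38.p6, 250 bases before to 50 after the start site listed there) were found for 31 of the 35 genes. The listed start can differ from the GENCODE start. Some windows, such as those of Ctsl, Atp6v0a1, Atp6v0e and Cd63, lie wholly inside the gene as GENCODE gives it. They were searched for the E-box CACGTG at the core of the CLEAR element and for its 8-base form TCACGTGA, which contains the core. Both read the same on either strand. The core was present in 12 of 33 windows, from 12 genes, and in 7.15% of all 32851 promoter windows. The 8-base form was present in 7 of 33 and in 0.974% of all. Many lysosomal genes were already known to carry this element, so shares above those of all promoters are no result of these libraries. By call, the core was present for 7 of 16 genes that rose, 2 of 7 that fell and 3 of 8 that did not pass. Each of these is a match of letters, not a binding site that was measured.

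The windows of the 3 genes with the smallest adjusted p in each direction show how unevenly the core is spread. Capitals mark CACGTG. Hexa, Ctsl and Lamp1 rose; Gusb, Atp6v0a1 and Glb1 fell. Hexa is at chr9:59539290-59539589 (plus strand), Ctsl at chr13:64370471-64370770 (minus), Lamp1 at chr8:13158911-13159210 (plus), Gusb at chr5:130003000-130003299 (minus), Atp6v0a1 at chr11:101010148-101010447 (plus) and Glb1 at chr9:114400828-114401127 (plus).
Hexa: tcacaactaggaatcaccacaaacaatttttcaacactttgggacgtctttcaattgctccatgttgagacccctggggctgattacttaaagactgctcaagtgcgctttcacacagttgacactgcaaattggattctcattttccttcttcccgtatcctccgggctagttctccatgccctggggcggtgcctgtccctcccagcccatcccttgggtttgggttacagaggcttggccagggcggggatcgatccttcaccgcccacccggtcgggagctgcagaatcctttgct
Ctsl: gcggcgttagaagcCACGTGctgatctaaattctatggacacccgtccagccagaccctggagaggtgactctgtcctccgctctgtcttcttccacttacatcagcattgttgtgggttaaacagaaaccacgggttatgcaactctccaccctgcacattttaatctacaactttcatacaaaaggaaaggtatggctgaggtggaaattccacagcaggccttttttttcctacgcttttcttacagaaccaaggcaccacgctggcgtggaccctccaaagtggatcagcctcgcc
Lamp1: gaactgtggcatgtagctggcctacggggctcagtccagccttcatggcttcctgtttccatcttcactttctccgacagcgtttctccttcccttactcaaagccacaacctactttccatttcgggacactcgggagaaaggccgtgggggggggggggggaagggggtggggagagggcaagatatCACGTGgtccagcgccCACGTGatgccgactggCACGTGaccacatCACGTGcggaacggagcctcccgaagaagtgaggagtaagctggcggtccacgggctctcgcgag
Gusb: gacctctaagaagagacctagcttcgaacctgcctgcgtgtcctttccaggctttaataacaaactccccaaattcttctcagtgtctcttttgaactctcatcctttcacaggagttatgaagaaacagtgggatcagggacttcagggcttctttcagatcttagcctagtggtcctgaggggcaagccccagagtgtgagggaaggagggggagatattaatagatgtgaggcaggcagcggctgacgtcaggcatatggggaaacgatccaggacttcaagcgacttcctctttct
Atp6v0a1: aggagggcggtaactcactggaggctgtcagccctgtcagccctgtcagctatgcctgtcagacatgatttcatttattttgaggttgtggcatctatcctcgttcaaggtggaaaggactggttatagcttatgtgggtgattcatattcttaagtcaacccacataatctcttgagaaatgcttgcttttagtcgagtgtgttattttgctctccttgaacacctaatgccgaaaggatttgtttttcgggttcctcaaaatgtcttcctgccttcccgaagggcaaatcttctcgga
Glb1: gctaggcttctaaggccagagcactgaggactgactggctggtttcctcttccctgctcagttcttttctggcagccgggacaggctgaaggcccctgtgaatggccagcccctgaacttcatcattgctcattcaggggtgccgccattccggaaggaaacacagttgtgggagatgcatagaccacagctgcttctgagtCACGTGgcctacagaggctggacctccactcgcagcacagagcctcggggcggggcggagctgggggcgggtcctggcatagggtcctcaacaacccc
Lamp1 carries 4 copies in its window, the first starting at 61 bases before the listed start site. Ctsl and Glb1 carry 1 copy each, at 236 and 48 bases before theirs. The GENCODE start of Ctsl is base 64370890, so its copy lies inside the annotated gene. The Atp6v0a1 window also lies inside its gene, so bases upstream of that GENCODE start were not searched. The windows of Hexa, the gene with the largest rise, and of Gusb and Atp6v0a1, which fell, hold none.

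Of 54 lysosomal genes outside the 35, 47 had enough reads, and 18 rose (38.3%) and 4 fell (8.51%). Over all genes tested 23.9% rose and 24.0% fell. The median log2 fold change of the 47 was 0.16. Laptm4b, a transmembrane protein of late endosomes and lysosomes, rose to 97.8 ± 5.32 CPM in DKO, against 32.7 ± 2.02 in WT (log2 fold change 1.58 ± 0.07, edgeR adjusted p = 4.2e-19). Its relative Laptm4a (0.48 ± 0.05) and the membrane protein Tmem192 (0.84 ± 0.07) rose too, the last on chromosome 8, where its neighbours' median was 0.35. The 4 that fell were Gm2a, Idua (-0.98), an iduronidase, Pla2g15 (-0.26), a phospholipase on chromosome 8 where the neighbours' median was -0.63, and Tmem175 (-0.56), an ion channel, and these 4 were chosen because they fell. The cholesterol carrier Npc2 (0.03) and the carboxypeptidase Scpep1, both above 100 CPM, did not pass.

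Autophagy genes went both ways, with 8 of 20 tested up and 6 down and a median of 0.05. The shares over all genes tested were 23.9% up and 24.0% down. The share of autophagy genes that fell lay closer to this background than the share that rose, and the list is short. Within the Gabarap group, which marks autophagosome membranes, Gabarapl1 rose to 49.2 ± 3.09 CPM in DKO, against 9.91 ± 1.13 in WT (log2 fold change 2.31 ± 0.10, edgeR adjusted p = 3.3e-19). Gabarapl2 fell to 29.0 ± 3.08 CPM in DKO, against 115.1 ± 6.35 in WT (-1.99 ± 0.07, edgeR adjusted p = 2.0e-21), and Gabarap rose (0.50). Gabarapl1 lies on chromosome 6 where the neighbours' median was 0.36, and Gabarapl2 and Map1lc3b (-0.55), which also fell, lie on chromosome 8 where it was -0.70 and -0.59. Map1lc3a (-0.10) and Atg5, of the conjugation machinery, did not pass.

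Of 15 genes of the lysosomal mTORC1 machinery and the TFE factors, 6 rose and 4 fell, where 23.9% and 24.0% of all genes tested did. The share of these 15 that fell was near that background, and the share that rose was above it. Tfeb rose to 132.1 ± 15.1 CPM in DKO, against 87.5 ± 1.55 in WT (0.59 ± 0.07, SE, edgeR adjusted p = 6.7e-09). Tfe3, named outside the rule after its values were seen, rose as well (0.34 ± 0.08, SE, edgeR adjusted p = 6.6e-04). The neighbours' median around Tfe3 was 0.23. Flcn, which encodes folliculin, rose to 42.8 ± 6.03 CPM in DKO, against 21.4 ± 1.43 in WT (edgeR adjusted p = 3.8e-10), as did its partner Fnip1 (0.62). Mitf, a relative of Tfeb, fell to 35.3 ± 4.28 CPM in DKO, against 62.6 ± 6.82 in WT (-0.83 ± 0.09, SE, edgeR adjusted p = 1.3e-09). It lies on chromosome 6, where the neighbours' median was -0.28. Lamtor1, an anchor of the complex, did not pass (0.03).

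Spread within groups was taken for the 35 genes only, with no comparison to other genes. The median coefficient of variation was 7.69% over the DKO libraries (range 1.56% to 24.4%) and 6.27% over the WT libraries (2.77% to 26.4%). DKO 3 was the lowest DKO library for 15 of the 35 genes, while over all genes tested it was lowest for 23.5%, and DKO 5 was lowest for 1. WT 3 was the lowest WT library for 14 of the 35 genes and for 26.3% of all genes tested. Without DKO 3, 20 of the 35 genes rose and 7 fell.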

How the data were processed

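Total RNA (600 ng) of 9 mouse embryonic stem cell samples was made into 3′ end libraries with a QuantSeq forward kit, per the labels' protocols. The deposited table holds raw whole-number counts per gene. The submitters' processing notes name cutadapt, STAR, featureCounts, DESeq2 and the build mm10; no version, strand setting or handling of reads with several matches is given there. Of 52550 gene identifiers 52403 matched GENCODE M21, which gave symbols and positions.

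From these counts edgeR 4.0.16 (R 4.3.3) was run on all genes passing filterByExpr, with TMM scaling, a robust quasi-likelihood test of DKO against WT and Benjamini-Hochberg adjustment over all genes tested. A call is an adjusted p under 0.05. The standard error is the log2 fold change divided by the square root of F. Shares within a library were compared by 2-sided exact permutation tests (scipy 1.17.1), whose smallest p is 0.0159 with 5 against 4 libraries. Floors cover counting error only. No pair of libraries of 1 group agreed within sampling noise (chi-square per degree of freedom 2.31 to 5.40 over 16 pairs). The scripts were tested on simulated counts.

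The 35 genes and the other lists were chosen with earlier results of these data known. Named from each other list were at most 4 passing genes, by adjusted p, and at most 2 that did not pass, by mean level, of at least 50 CPM; other names were picked after their values were seen and are marked so. Some results of the other lists are not reported here. Alternatives were DESeq2 1.42.0, RLE scaling, no filter, a filter of 5 CPM in 4 libraries, a replicate block, scaling without chromosomes 6, 8, Y and mitochondrial genes, and leaving out each library. Shares with Atp6v0a4 in the total, and counts outside chromosomes 6 and 8, were added after seeing the data.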

Additional observations from a re-analysis of the deposited data

Results flagged for a closer look

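Within groups, 7 of 122 sets of values held a library set apart from the others of its group by Dixon's test at its 95% critical value, which chance gives in about 1 of 20. Among the 35 genes these were Ctsl in DKO 3, with 281.6 CPM where the other DKO libraries had 333.6 to 342.4, Atp6ap1 in WT 2, with 68.16 CPM where the other WT libraries had 76.84 to 78.38, and Tpp1 in WT 3, with 68.32 CPM where the others had 73.04 to 73.57. In the other lists they were Atp6v0a4 in DKO 2 (2.82 CPM), Map1lc3a in WT 2 (92.4 CPM) and Flcn in WT 3 (19.25 CPM), and, of the targeted genes, Klf4 in WT 2 (775.3 CPM).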

How the results depend on the processing

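Of the 27 lysosomal genes that passed, 23 kept their call and direction in every alternative run; Atp6v0a2, Ctsb, Atp6v1h and Man2b1 lost theirs in at least 1, with values given above. Between 18 and 20 of the 35 rose and 6 or 7 fell across the alternatives that used all 35, and the median log2 fold change over all genes tested lay between 0.001 and 0.011. Counts of other lists that moved by more than 1.5 times were those of other V-ATPase genes, where 2 rose without DKO 2 (1 with all libraries) and 1 fell under the 5 CPM filter (2 with the main filter, 4 genes then being tested), and other lysosomal genes, where 2 fell without DKO 4 or without WT 4 (4 with all). Within that tolerance, over all alternatives 16 to 18 other lysosomal genes rose, 6 to 8 autophagy genes rose and 5 or 6 fell, and 5 to 8 mTORC1 and TFE genes rose and 3 or 4 fell. With 1 WT library left out, the difference of the a-subunit shares ranged from -14.7 to -12.2 percentage points for Atp6v0a1. For Atp6v0a2 it ranged from 8.31 to 11.5. The adjusted p was 0.0536 each time (exact permutation test), the smallest these runs allow when 2 of 3 shares separate. They could not keep either call. For Tcirg1 the difference ran from 2.43 to 4.85 with 1 library left out and passed without DKO 2 (4.85, adjusted p = 0.0286, exact permutation test) and, in an alternative added after seeing the data, with Atp6v0a4 in the total (3.99, adjusted p = 0.0476, exact permutation test). Directions turned for genes that passed in no setting. With 1 library left out, log2 fold changes ran from -0.03 to 0.01 for Atp6v1f, -0.12 to 0.02 for Psap, -0.0079 to 0.06 for Npc2, -0.05 to 0.03 for Scpep1, -0.02 to 0.09 for Atp6v1c1 and -0.06 to 0.03 for Atg5. Scpep1 had 0.0002 without a filter, and with the replicate block Atp6v1c1 had -0.0015 and Atg5 0.03. The cause was not tested.

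Deviations of same-numbered libraries of the groups correlated weakly but positively, at 0.0609, 0.0147, 0.0639 and 0.0322, all under 0.1. Whether the replicate numbers mark a shared batch was not tested. Every library with a same-numbered partner correlated best with it, except WT 2, which correlated best with DKO 5 (0.051). With the replicate number as a block 20 of the 35 genes rose and 7 fell, the same counts as without it. At this depth genes of a few CPM carry wide errors, such as Mcoln1 (SE 0.17) and Gla (SE 0.16).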
